A study of Homo sapiens with 4 samples.

Results

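Mucin genes encode the large, heavily glycosylated proteins that coat epithelial surfaces, and 10 of them (MUC1, MUC2, MUC3A, MUC4, MUC5AC, MUC5B, MUC6, MUC13, MUC16 and MUC20) were examined for N6-methyladenosine (m6A) peaks in OE-19 cells. The genes are a part of the mucin family, out of 20046 protein-coding genes in the GENCODE annotation of hg38. No peak value was in the rule that chose them, but earlier results of these data were known. A peak was counted for a gene when its summit lay in the gene body, which gave 24 of 24607 peaks in replicate 1 and 25 of 19318 peaks in replicate 2. The study mapped m6A in OE-19, an established cell line from adenocarcinoma of the esophagogastric junction (AEG), with no drug or genetic change named for any sample and UV fixation of the cells given in the labels of all. In meRIP-seq, RNA is captured with an antibody against m6A and sequenced, and stretches with more captured reads than background are listed as peaks. The 4 samples were 2 replicates of the anti-m6A capture (m6A IP) and 2 replicates of input RNA, and no peak list of the inputs was analysed here. The study calls its meRIP-seq replicates biological, the labels do not say whether they were separate cultures, and 1 cell line cannot stand for AEG tumours.

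Secreted gel-forming mucins (MUC2, MUC5AC, MUC5B and MUC6) polymerise into mucus, whereas transmembrane mucins (MUC1, MUC3A, MUC4, MUC13, MUC16 and MUC20) stay anchored at the apical cell surface. Many mucins carry a very long coding exon of tandem repeats that encode serine- and threonine-rich stretches, on which O-linked sugars are built. m6A is written on nascent mRNA by the METTL3 and METTL14 methyltransferase complex at adenosines in the DRACH consensus (where H stands for any base but G, D for any base but C, and R for A or G), of which GGAC is a common core, and is known to lie often in long exons, near stop codons and in 3′ UTRs.

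Each peak was described by its fold enrichment, the ratio of captured signal to the background of the peak caller at the summit, and by −log10 q, where a larger value stands for a peak less likely under that background. The lists hold no read numbers and no expression values, so the depth behind each peak is unknown, and a gene without a peak cannot be told apart from a gene with too few reads. Because 1 group had values, no test between groups was possible, and the values below are descriptions set beside the same values over all protein-coding genes. Confidence intervals are 95% Wilson intervals that cover counting error only. They treat the peaks as independent, although many lie in the same gene or exon.

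Exonic peaks were listed for 8 of the 10 mucin genes in replicate 1 and for 6 in replicate 2, against 42.4% and 34.1% of all protein-coding genes. The 6 genes MUC1, MUC3A, MUC4, MUC5AC, MUC5B and MUC20 had an exonic peak in both lists, against 33.4% of protein-coding genes and 46.0% of those with at least 5 kb of exonic sequence. MUC6 and MUC13 had exonic peaks in replicate 1 only, so that 8 of 10 had one in either list, against 43.1% of protein-coding genes. Outside the 10, 2 of 12 other mucin genes had an exonic peak in both lists. Of the 10, MUC2 and MUC16 had no peak in either list, in exons or introns. In MUC4 the peaks of the lists lay in different places, which left 5 genes with an exonic peak that overlapped between the replicates. The share of all protein-coding genes with such an overlap is not given here, and the 33.4% does not require it. MUC5B with 5 and 7 exonic peaks and MUC20 with 7 and 5 together carried 12 of the 22 exonic mucin peaks of replicate 1 and 12 of the 24 of replicate 2.

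**Figure D1:**
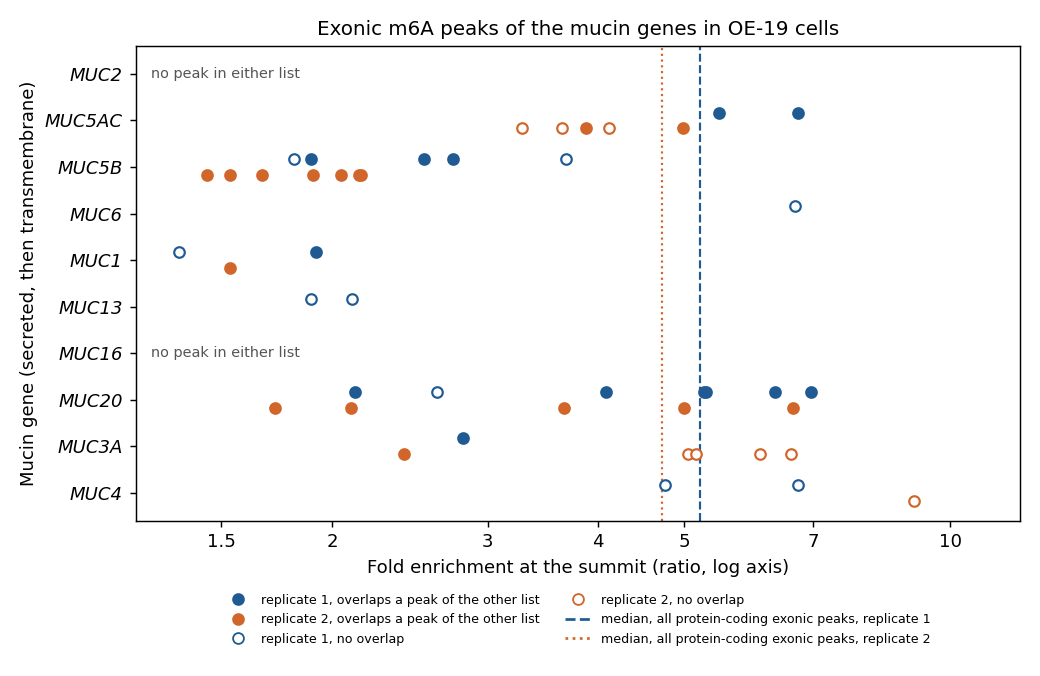
Fold enrichment (ratio, log axis) of each exonic peak of the 10 mucin genes, with replicate 1 in blue above replicate 2 in orange, filled points for peaks that overlap a peak of the other list and open points for the rest. The dashed and dotted lines are the medians of all protein-coding exonic peaks, 5.21 in replicate 1 and 4.72 in replicate 2. MUC5B points lie between 1.45 and 3.68, left of both lines, and MUC2 and MUC16 have none.

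Among the secreted mucins, MUC5B (ENSG00000117983.17, chr11:1223066-1262172, plus strand), a gel-forming mucin of airways and glands, had the most of its exonic sequence under peaks. Its exon 31 of 49 is a coding exon of 10893 nt (chr11:1240851-1251743) in which 74.9% of 12-mers occur more than 1 time, with a repeat period of 87 nt. In replicate 1, 3 peaks of 3290, 2403 and 4815 bp covered 96.5% of this exon (10508 bp), and in replicate 2, 7 peaks covered 82.4% (8976 bp), all of it within the replicate 1 peaks. By covered bases it ranked 4 of 6224 long exons with any coverage in replicate 1 and 4 of 5419 in replicate 2, where a long exon has 1000 nt or more. The stretches without a peak were 24, 142, 122 and 97 nt long in replicate 1, and 82 to 440 nt long in replicate 2.

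The sequences below, from hg38 on the gene strand, show the GGAC content of this exon, with every GGAC in capitals. The first 3 are the summits of the replicate 1 peaks with 50 nt on each side, at chr11:1241405-1241505, chr11:1245418-1245518 and chr11:1249084-1249184, and the last is a pair of neighbouring repeat units at chr11:1250045-1250218, which matched at 81 of 87 positions.
MUC5B exon 31, first peak: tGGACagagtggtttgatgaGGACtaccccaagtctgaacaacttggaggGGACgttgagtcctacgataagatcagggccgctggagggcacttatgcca
MUC5B exon 31, second peak: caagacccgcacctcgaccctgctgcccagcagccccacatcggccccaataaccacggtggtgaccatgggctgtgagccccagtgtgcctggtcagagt
MUC5B exon 31, last peak: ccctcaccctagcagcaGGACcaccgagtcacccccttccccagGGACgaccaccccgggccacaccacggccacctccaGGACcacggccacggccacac
MUC5B exon 31, repeat pair: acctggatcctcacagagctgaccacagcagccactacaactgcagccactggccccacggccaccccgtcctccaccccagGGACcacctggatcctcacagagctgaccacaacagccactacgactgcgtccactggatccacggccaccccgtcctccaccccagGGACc
The first and last windows hold 3 GGAC each, the second holds none, and each repeat unit of the pair holds 1 near its end. Over the whole exon there were 96 GGAC, or 8.81 per kb, the percentile 91.9 among 1361 long exons of at least 90% coding sequence, whose median was 4.27 per kb. Peaks held 93 of the 96 in replicate 1 and 83 in replicate 2, so that the density was 8.85 per kb inside and 7.79 per kb outside peaks in replicate 1, and 9.25 and 6.78 per kb in replicate 2. Its density of DRACH was 18.7 per kb, below the median of 20.6 per kb.

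MUC5B peaks were wide and low in fold enrichment, while most had a −log10 q above the median of all exonic peaks. In exon 31, the 3 peaks of replicate 1 had fold enrichments of 2.54, 2.74 and 1.89 with −log10 q of 25.3, 29.4 and 12.7. The 7 peaks of replicate 2, from 5′ to 3′, had fold enrichments of 2.15, 2.16, 2.05, 1.90, 1.67, 1.53 and 1.45 with −log10 q of 20.8, 17.8, 18.4, 15.4, 10.2, 4.60 and 2.88. In both lists the fold enrichment was lowest toward the 3′ end of the exon. Against all exonic peaks of their list, the fold enrichments of the exon 31 peaks lay at percentiles 1.31 to 10.2 in replicate 1 and 0.0915 to 4.39 in replicate 2, whereas −log10 q lay at percentiles 53.4 to 79.6 and 5.89 to 67.2. The summits of the 3 peaks that paired with a replicate 2 peak were 45, 9 and 4 bp apart. In this exon, 79.6% of the 150 nt stretches, the read length of the study, occur at 1 place in hg38, and none of the others occurs outside the exon. Some of these peaks also lie in the body, though not in an exon, of the antisense gene MUC5B-AS1, and the lists carry no strand. Outside exon 31, replicate 1 alone had a peak in exon 1 (fold enrichment 3.68, −log10 q 16.2) and a 3′ UTR peak in exon 49 (1.81 and 6.15), whose summit was 18 nt after the stop codon, while the other 46 exons had no peak in either list.

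**Figure D2:**
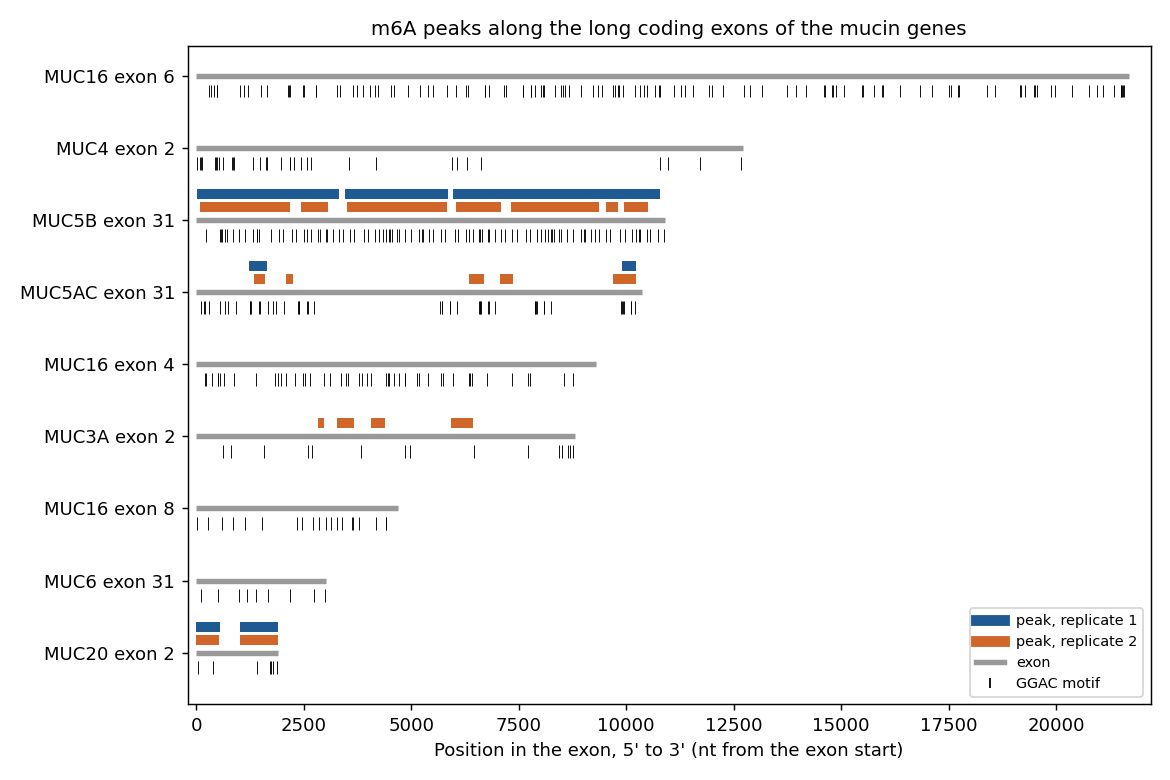
Peaks of replicate 1 (blue) and replicate 2 (orange) along the 9 coding exons of 1000 nt or more in the mucin genes (grey), with positions in nt from the exon's 5′ end and each GGAC as a black tick. Peaks cover 96.5% and 82.4% of MUC5B exon 31 and 75.3% and 75.01% of MUC20 exon 2, and none lies in MUC4 exon 2, MUC6 exon 31 or the 3 long exons of MUC16.

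MUC5AC (ENSG00000215182.8, chr11:1157953-1201138, plus strand), the mucin of gastric surface cells and airways, lies beside MUC5B and has a like exon 31 of 10371 nt (chr11:1182155-1192525), with 80.7% repeated 12-mers and a period of 24 nt. Peaks covered 7.24% of it in replicate 1 and 15.6% in replicate 2, and no other exon of the gene had a peak. Replicate 1 had peaks of fold enrichment 5.47 (−log10 q 6.81) and 6.72 (7.39), and both overlapped replicate 2 peaks, of 3.88 (3.26) and 4.99 (4.70). The other 3 replicate 2 peaks, of 4.11, 3.28 and 3.64, lay between them and had no overlap. The 2 places shared by the lists were near the ends of the exon, at nt 1217 to 1652 and 9904 to 10218 in replicate 1. The window around the replicate 1 summit at the 3′ end (chr11:1192068-1192168) and a pair of identical 24 nt repeat units from the middle of the exon (chr11:1185653-1185700) are shown with GGAC in capitals.
MUC5AC exon 31, 3′ peak: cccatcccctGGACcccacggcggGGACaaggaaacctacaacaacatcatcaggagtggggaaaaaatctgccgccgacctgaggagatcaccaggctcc
MUC5AC exon 31, repeat pair: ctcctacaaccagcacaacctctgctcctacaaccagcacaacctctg
This window holds 2 GGAC and the repeat pair none, but of the 7 MUC5AC summits in the lists only 2 had a GGAC within 50 nt, this one and the replicate 2 summit of the peak at the 5′ end. The exon had 50 GGAC, or 4.82 per kb, with 14.6 per kb inside and 4.05 per kb outside the replicate 1 peaks, and 8.05 and 4.23 per kb for replicate 2. In the peak at the 5′ end, 65.6% of the 150 nt stretches of replicate 1 and 82.8% of those of replicate 2 occur at 1 place in hg38, and the peak at the 3′ end is free of repeated stretches in both.

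MUC6 (ENSG00000184956.16, chr11:1012823-1036718, minus strand), the gel-forming mucin of gastric glands, had 1 peak, in replicate 1 only. It lay in the 3′ UTR in exon 33 of 33 (chr11:1012900-1013416), its summit 317 nt after the stop codon, with a fold enrichment of 6.68 and −log10 q of 9.75. Its repeat-rich exon 31 of 3009 nt, with 9 GGAC, had no peak. MUC2 (ENSG00000198788.9, chr11:1074875-1110511, plus strand), the main mucin of intestinal goblet cells, had no peak, and its longest annotated exon (chr11:1094142-1100025, 5884 nt, 74.0% repeated 12-mers) held 8 GGAC, or 1.36 per kb. That exon is in a transcript other than the one used to represent the gene, so it is not among the repeat-rich exons counted below. Thus the 4 secreted mucins, which lie on chromosome 11, spanned the range from none to nearly complete coverage of their repeat exons.

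Among the transmembrane mucins, MUC20 (ENSG00000176945.18, chr3:195720884-195741123, plus strand), known to bind the MET receptor, had the most peaks and the highest −log10 q. Its 7 exonic peaks in replicate 1 and 5 in replicate 2 placed it at percentiles 98.4 and 98.1 of protein-coding genes with a peak, by peaks per gene. All 4 exons of its representative transcript were touched by peaks in both lists. The 2 peaks of exon 2, a coding exon of 1893 nt (chr3:195724680-195726572) with 34.1% repeated 12-mers and a period of 57 nt, had fold enrichments of 6.96 and 5.30 in replicate 1 and 4.99 and 3.66 in replicate 2. Their −log10 q were 51.9 and 46.4, and 47.2 and 32.5, and their summits differed by 2 and 6 bp between the lists. The windows around the replicate 1 summits (chr3:195724945-195725045 and chr3:195726290-195726390), with GGAC in capitals, show that only the second holds a GGAC near the summit.
MUC20 exon 2, first peak: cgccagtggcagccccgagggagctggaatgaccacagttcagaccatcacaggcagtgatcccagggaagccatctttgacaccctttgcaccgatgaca
MUC20 exon 2, second peak: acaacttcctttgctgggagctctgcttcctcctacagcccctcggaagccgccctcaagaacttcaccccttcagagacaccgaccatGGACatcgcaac
All 7 GGAC of the exon lay inside peaks in both lists. Of its 150 nt stretches, 44.1% also occur elsewhere in hg38, 60.1% in the first replicate 1 peak and 13.4% in the second, so the gene that gave part of these reads is uncertain. The pseudogene MUC20P1 had 1 peak in replicate 1 (fold enrichment 10.6) and 2 in replicate 2 (6.01 and 7.70).

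The peak at exon 1 of MUC20 had fold enrichments of 5.27 and 5.26 and −log10 q of 23.1 and 26.3, and its replicate 2 summit lay 6 bp away, just past the exon, where it was counted as intronic. At exon 3 the values were 2.12 and 2.10 (−log10 q 2.87 and 2.43), with the replicate 2 summit 32 bp away in an exon of another transcript. The 3′ UTR peak in exon 4 had a fold enrichment of 4.08 (−log10 q 24.2) in replicate 1 and 1.73 (2.99) in replicate 2, a log2 ratio of 1.24 that lay at percentile 93.3 of all exonic pairs. A peak in an exon of another transcript further 3′ had 6.34 (10.7) and 6.64 (14.4), and 1 more such peak, of 2.63 (1.75), was in replicate 1 only. Of these exonic peaks, 4 in replicate 1 and 2 in replicate 2 also had the summit in an exon of MUC20-OT1, a gene that overlaps MUC20 on the same strand, so their gene is uncertain. No other mucin peak had its summit in an exon of a second gene.

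MUC4 (ENSG00000145113.22, chr3:195746765-195811973, minus strand), a membrane mucin known to bind ERBB2, has the second longest mucin exon, exon 2 of 12708 nt (chr3:195778790-195791497), with 72.7% repeated 12-mers and 73.9% identity at its period of 48 nt. No peak lay in that exon in either list, and the reason was not tested. Of its 150 nt stretches, 85.8% occur at 1 place in hg38, and the number of reads there is unknown. A pair of its repeat units (chr3:195785026-195785121, minus strand) was identical at 48 of 48 positions and held no GGAC and no DRACH.
MUC4 exon 2, repeat pair: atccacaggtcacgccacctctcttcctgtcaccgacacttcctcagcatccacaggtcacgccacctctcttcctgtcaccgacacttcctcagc
The exon had 33 GGAC, or 2.60 per kb, and 15.03 DRACH per kb, at percentiles 24.2 and 22.7 of long coding exons. Elsewhere in MUC4, replicate 1 had a peak of fold enrichment 6.72 (−log10 q 7.39) in an exon of another transcript, 1 of 4.76 (3.70) in exon 23 and an intronic peak of 6.10 (7.38), and replicate 2 had a peak of 9.08 (10.7) in exon 19. The intronic peak had its summit just outside exon 25, the last exon, and covered 240 bp of it, or 39.3%. No peak of MUC4 overlapped between the lists.

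MUC3A (ENSG00000169894.18, chr7:100949534-100968347, plus strand), a membrane mucin of the intestine, had 4 peaks in its repeat-rich exon 2 of 8805 nt (chr7:100951841-100960645) in replicate 2 and none there in replicate 1. Their fold enrichments were 5.05, 5.16, 6.60 and 6.09, all above the median of 4.72 for protein-coding exonic peaks of that list. Their −log10 q were 3.71, 4.15, 7.30 and 6.17. All 150 nt stretches of the exon occur at 1 place in hg38. None of the 4 peaks held a GGAC anywhere, although the exon has 15, and the window around the summit of the strongest (chr7:100955934-100956034) is shown for that reason.
MUC3A exon 2, strongest replicate 2 peak: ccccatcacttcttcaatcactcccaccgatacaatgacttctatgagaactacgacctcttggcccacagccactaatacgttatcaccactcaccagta
The peak of MUC3A shared by the lists was in the 3′ UTR in exon 12, with summits 2 bp apart and fold enrichments of 2.81 (−log10 q 6.26) and 2.41 (5.86).

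MUC1 (ENSG00000185499.17, chr1:155185824-155192916, minus strand), a membrane mucin whose cytoplasmic tail takes part in signalling, had a 3′ UTR peak in exon 8 with the summit at the same base in both lists, 138 nt after the stop codon. Its fold enrichment was 1.92 in replicate 1 and 1.54 in replicate 2, and its −log10 q 12.4 and 6.03. The nearest GGAC, 21 nt from the summit, is shown in capitals with the bases around it (chr1:155185964-155185992, minus strand).
MUC1 3′ UTR: caccaatttctcGGACacttctcagtgtg
Replicate 1 also had a peak in exon 3, whose fold enrichment of 1.34 was the lowest of that list. An intronic peak of replicate 1 (chr1:155188596-155188720) had a fold enrichment of 2.02, −log10 q of 12.7 and 82.4% GC. It lies at the edge of a stretch of 3246 nt (chr1:155188617-155191862) in which 84.1% of 12-mers are repeated, with 85.2% identity at a period of 60 nt and 14.5 GGAC per kb. The GENCODE version used lists no exon there, so these repeats were counted as intronic and are not among the repeat-rich exons below. Whether MUC1 mRNA of OE-19 cells carries them cannot be read from the lists. No other peak lay in them in either list.

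MUC13 (ENSG00000173702.7, chr3:124905442-124953819, minus strand), a membrane mucin of the digestive tract, had 2 peaks in replicate 1 only, in the coding sequence in exon 2 (fold enrichment 1.89, −log10 q 4.92) and in the 3′ UTR in exon 12 (2.11 and 5.77). MUC16 (ENSG00000181143.16, chr19:8848844-9010390, minus strand), which carries the CA125 antigen, had no peak in 87 exons. Its exon 6 of 21693 nt was the longest mucin exon, at rank 11 of 13904 long exons. The 3 long exons of MUC16 held 4.27 to 5.53 GGAC per kb, at percentiles 50.3 to 67.7, and 28.9 to 33.5 DRACH per kb, at percentiles 93.7 to 98.4 of long coding exons. The GGAC density of these exons was thus at or above the median, and they had no peak. Whether MUC16 had enough reads for a peak is unknown, and the reason for the lack of peaks was not tested.

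**Figure D3:**
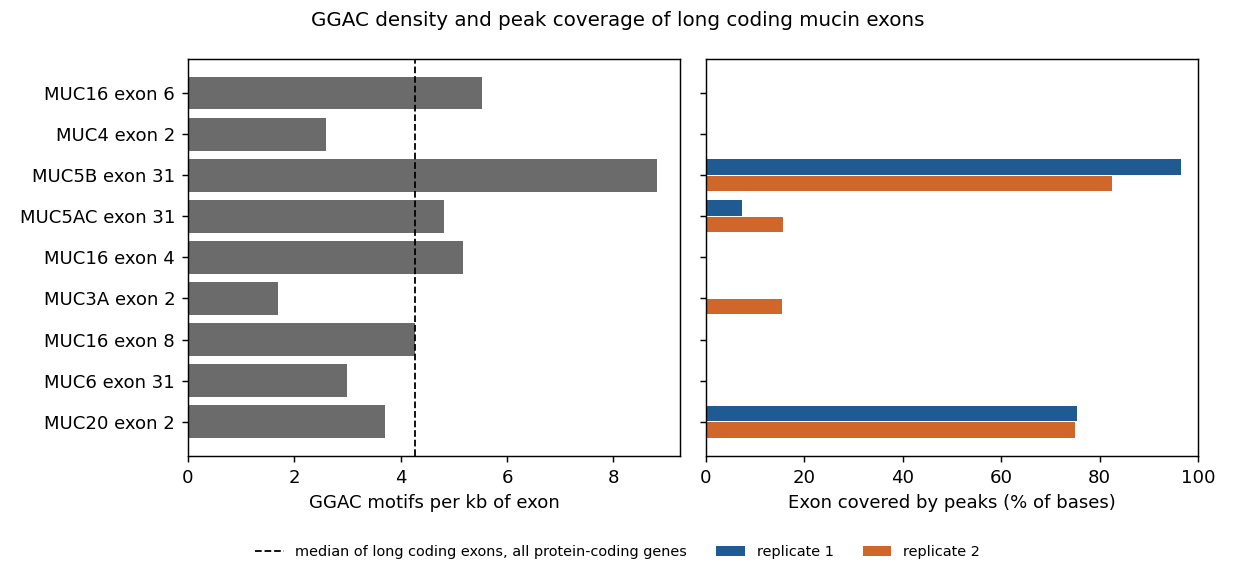
GGAC per kb (left, dashed line: median of 4.27 over long coding exons of all protein-coding genes) and percent of bases under peaks (right) for the 9 long coding exons of the mucin genes, ordered by length, with replicate 1 in blue and replicate 2 in orange. MUC5B exon 31 has 8.81 GGAC per kb and the widest coverage, whereas the MUC16 exons, at 4.27 to 5.53, have none.

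To set the repeat exons against the others, exons of the representative transcripts were split by length and repeats, where repeat-rich means at least 20% repeated 12-mers. The 8 repeat-rich long exons of 7 mucin genes (74.1 kb) held 7 summits in replicate 1 and 18 in replicate 2, or 0.0945 and 0.243 per kb, and peaks covered 17.1% and 18.1% of their bases. These summits were in 3 exons in replicate 1 (MUC5B, MUC5AC and MUC20) and in 4 in replicate 2 (also MUC3A). The 3 other long exons held 2 summits and 1 summit, and the 298 exons under 1000 nt held 10 and 3, or 0.246 and 0.0738 per kb. By summits per kb, mucin peaks in shorter exons were thus more frequent than in repeat-rich long exons in replicate 1, and less frequent in replicate 2. By bases under peaks, the shorter exons were lower in both lists, at 6.26% and 1.74%. Summits also count how a covered stretch is divided, and MUC5B exon 31 alone held 3 in replicate 1 and 7 in replicate 2. Over all protein-coding genes, 191 repeat-rich long exons held 0.249 and 0.251 summits per kb with 18.1% and 16.3% of bases covered, while the shorter exons held 0.261 and 0.127 per kb. MUC5B exon 31 supplied most of the covered bases, 10508 of them in replicate 1 and 8976 in replicate 2, against 751 and 1615 in MUC5AC exon 31.

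Counted over all their exonic peaks, the mucin genes had a lower median fold enrichment than protein-coding genes as a whole. It was 3.24 in replicate 1 (range 1.34 to 6.96) and 3.46 in replicate 2 (1.45 to 9.08), against 5.21 and 4.72 over all protein-coding exonic peaks. MUC5B, with 5 of the 22 peaks of replicate 1 and 7 of the 24 of replicate 2, had medians of 2.54 and 1.90. Medians were 5.27 and 3.66 in MUC20, 6.10 and 3.88 in MUC5AC, and 2.81 and 5.16 in MUC3A. The median without MUC5B was not computed. Over all exonic mucin peaks, the median −log10 q was 8.57 and 5.95, against 11.996 and 13.4. Secreted and transmembrane mucins had like medians of fold enrichment in replicate 1, 3.21 and 3.45, and different ones in replicate 2, 2.15 and 5.02, where 7 of 12 secreted peaks were those of MUC5B.

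Peaks of like fold enrichment differed in −log10 q by gene. In replicate 1, exonic peaks with a fold enrichment from 2.5 to 3 had a median −log10 q of 5.26 and a 95th percentile of 18.2, and the MUC5B peaks in this range had 25.3 and 29.4. In replicate 2, the range from 2 to 2.5 had a median of 5.45 and a 95th percentile of 16.4, and the 3 MUC5B peaks in it had 17.8 to 20.8. Of the 8 mucin peaks found only in replicate 2, 6 had a −log10 q below the 5th percentile of their range of fold enrichment and 2 lay between the 5th percentile and the median. MUC3A exon 2 peaks of 5.05 and 5.16 had −log10 q of 3.71 and 4.15, below the 5th percentile of 4.70 for their range, and the peak of 6.09 had 6.17, below 6.63. MUC5AC peaks of 3.28 and 3.64 had 2.16 and 2.02, below 2.42, and the MUC4 peak of 9.08 had 10.73, just below 10.78. The 2 within the range were MUC5AC with 5.13 at 4.11 (5th percentile 3.21) and MUC3A with 7.30 at 6.60 (6.63). All 8 mucin peaks found only in replicate 2 had the same pair of fold enrichment and −log10 q as at least 1 other peak of the list, as did 94.5% of all unshared peaks of that list, against 4 of 16 shared mucin peaks and 71.7% of all shared peaks. In replicate 1 such equal values were held by 4 of 9 unshared and 7 of 13 shared mucin peaks, against 85.5% of all unshared and 75.8% of all shared peaks of that list. These percentages are over all peaks of each list, in exons or not, whereas the mucin counts are of exonic peaks. The number of reads behind these peaks is not in the lists, and its part in the result was not tested.

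**Figure D4:**
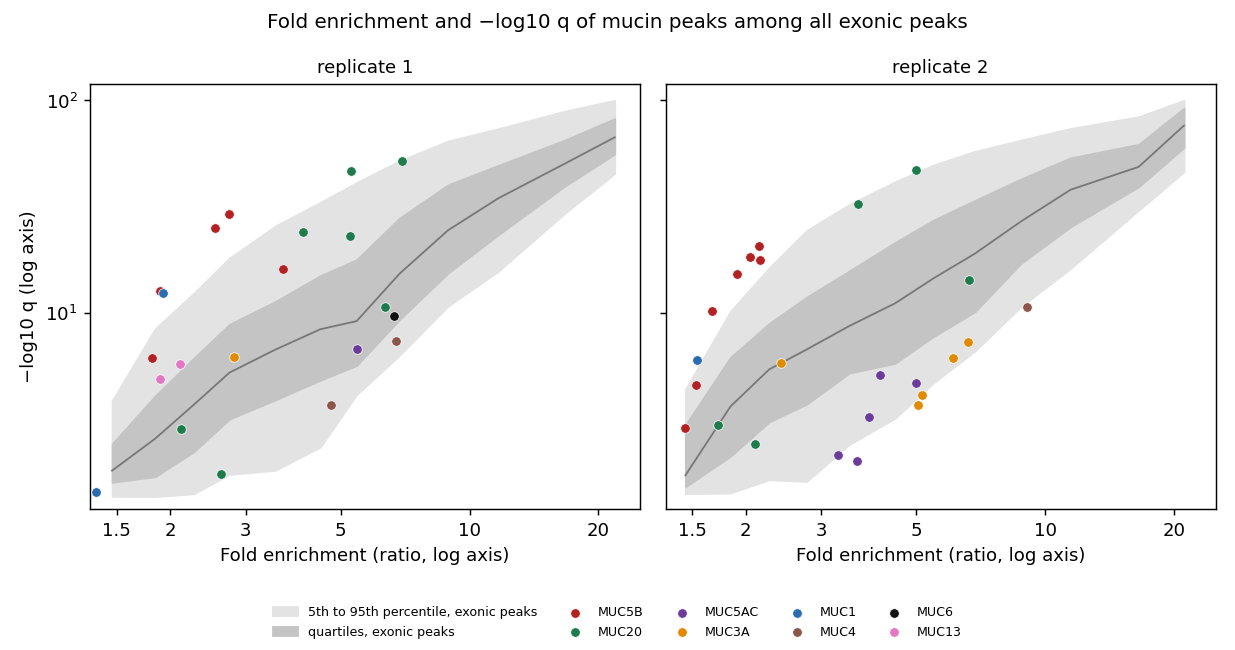
−log10 q (log axis) against fold enrichment (ratio, log axis) of exonic mucin peaks, coloured by gene, in replicate 1 (left) and replicate 2 (right). Grey bands give the quartiles and the 5th to 95th percentiles of −log10 q over all exonic peaks of like fold enrichment, and the line is their median. Most MUC5B points lie above the band, such as 29.4 at a fold enrichment of 2.74, whereas in replicate 2 a MUC3A point with 3.71 at 5.05 and a MUC5AC point with 2.02 at 3.64 lie below it.

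Between the replicates, 13 of 22 exonic mucin peaks of replicate 1 (59.1%, interval 38.7% to 76.7%) overlapped a replicate 2 peak by at least 1 bp, close to the 60.6% of all protein-coding exonic peaks. In the other direction, 16 of 24 (66.7%, interval 46.7% to 82.0%) overlapped, below the 95.9% of all protein-coding exonic peaks of replicate 2. The 8 without overlap were 4 in MUC3A, 3 in MUC5AC and 1 in MUC4, and the 16 with overlap included 7 in MUC5B and 5 in MUC20. Among the 13 pairs with an exonic replicate 1 peak, 12 had the higher fold enrichment in replicate 1, with a median log2 ratio of 0.32, while 79.6% of 11916 pairs over all genes were higher in replicate 1, with a median of 0.43. The exception was the MUC20 peak furthest 3′, with 6.34 and 6.64.

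A GGAC lay within 50 nt of 8 of 22 exonic mucin summits in replicate 1 (36.4%, interval 19.7% to 57.0%) and of 10 of 24 in replicate 2 (41.7%, interval 24.5% to 61.2%), against 49.8% and 51.8% of all protein-coding exonic summits. For DRACH the shares were 77.3% and 87.5%, against 85.6% and 89.0%. In replicate 2 the 10 summits with a GGAC were all among the 16 shared peaks, 6 of them in MUC5B, and none was among the 8 unshared peaks. In replicate 1 they were 6 of 13 shared and 2 of 9 unshared peaks. Motifs were searched on the gene strand only, and a match is not a methylated site.

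Genes that act with mucins were examined by the same rule. Of 20 polypeptide N-acetylgalactosaminyltransferase (GALNT) genes, which start O-linked sugar chains, 9 had an exonic peak in both lists, led by GALNT6 with shared peaks of fold enrichment 13.95 and 7.69 in replicates 1 and 2. GALNT4 (11.8 and 8.13), GALNT10 (6.83 and 5.65), GALNT7 (7.52 and 4.54) and GALNT2 (7.33 and 3.89) followed. Of 12 genes that extend the chains, 9 had a peak in both, among them GCNT4 (19.1 and 9.90), C1GALT1 (12.1 and 10.3), GCNT3 (13.1 and 6.59), B4GALT5 (7.56 and 8.56) and GCNT1 (7.22 and 8.24). Of 12 other mucin genes, 2 had a peak in both lists, OVGP1 (7.003 and 7.04) and CD164 (3.61 and 2.90).

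Of 15 secretory genes of goblet and foveolar cells, 5 had a peak in both lists. These were FCGBP, whose protein binds to mucus (19.2 and 4.54, the strongest shared peak of 11 and 7), the transcription factors FOXA3 (7.45 and 5.83), SPDEF (5.49 and 4.95) and CREB3L1 (3.26 and 1.89), and the stress sensor ERN2 (3.71 and 3.37). Of 6 markers of a glandular epithelial line, CDH1 had peaks in both lists (4.47 and 3.85) and EPCAM, KRT8, KRT18, KRT19 and ERBB2 had none, which says nothing of their expression. These shares were read beside the 33.4% of protein-coding genes with a peak in both lists, and no list was tested.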

How the data were processed

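Peak lists of 2 m6A IP samples were analysed, with groups taken from the sample labels. The 2 input samples had no values used here. The labels of all samples name UV fixation and lysis of the cells, whereas the study's methods describe extracted, DNase-treated and fragmented total RNA. According to the study's methods, paired-end reads were mapped to hg38 with TopHat2 and peaks were called with MACS2, while the submitters' processing notes name fastp, HISAT2 and MACS2. Versions, the handling of reads that map to several places, and whether input served as the control are not given in the sources used here. The authors deposited, for each peak of each sample, the ratio of signal to background at the summit (fold enrichment), the q-value and p-value as −log10, a score made from q, and the summit as an offset from the peak start. The score and p-value were not used. The highest q was 0.0491 and 0.0497, so the lists end at 0.05. Fold enrichment depends on the caller's background and is not an m6A level.

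From these values, summits were placed in the union of exons of GENCODE version 44, with protein-coding genes first. All 44 and 53 chromosome names matched hg38, and 0 peaks ran past an end. Coordinates are 1-based. The representative transcript was MANE Select or, failing that, the one with the longest coding sequence. Long exons had 1000 nt or more, and repeat-rich ones at least 20% of 12-mers occurring again in the exon. The repeat period was the shortest shift, from 6 to 600 nt, with at least 95% of the best identity. GGAC and DRACH were searched within 50 nt of the summit on the gene strand, and a GGAC can be part of a DRACH. Shared peaks overlapped by at least 1 bp, and pairs were each other's largest overlap. Percentiles of fold enrichment and −log10 q are among all exonic peaks of the same list, in genes of any type.

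The members, gene lists and thresholds were chosen with earlier results of these data known. Named genes were all 10 members, genes whose exons hold a member's summit, and up to 5 genes of each list with a peak in both lists, ordered by the geometric mean fold enrichment of a shared peak. Alternatives were stricter limits of q (0.01 and 1e-05), a fold enrichment minimum of 5, peak midpoints, representative exons only, summits in 1 gene only, other overlap rules, exon lengths, repeat limits and motif windows, and each replicate left out. The scripts were tested on simulated data, where 300 of 300 planted shared peaks and a planted period of 60 nt were recovered. The tools were pysam 0.24.0, pandas 2.3.3, numpy 2.4.6, scipy 1.17.1 and matplotlib 3.10.9 in Python 3.11.15.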

Additional observations from a re-analysis of the deposited data

How the results depend on the processing

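Of 51 alternative values for 7 results that kept both replicates, 35 moved by less than the spread between the replicates (for counts, by less than 1.5 times) and 16 moved by more. The values are means of the replicates, and with all peaks they were 6 mucin genes with an exonic peak in both lists, 23 exonic peaks, 62.9% shared, a median fold enrichment of 3.35, 0.169 summits per kb of repeat-rich long exon, 39.0% of summits with GGAC, and 25 genes of the other mucin, O-glycan, and goblet and foveolar lists (the epithelial markers are not counted here). A fold enrichment of 5 or more moved each of them, to 2 genes (MUC4 and MUC20), 7 peaks, 20.8%, 6.43, 0.0540 per kb, 27.1% and 12 genes. It removes peaks below 5 from both lists by its construction, which lowers the counts and raises the median. A peak kept in 1 list also counts as unshared where its partner in the other list lies below 5. The MUC5AC pair of 6.72 and 4.99 is 1 such case. For the GGAC percentage the cause was not tested. The median fold enrichment became 3.67 at q of 0.01 or less, 3.56 at q of 1e-05 or less, and 3.14 both with peak midpoints and with representative exons only. The share with GGAC became 45.6% at q of 1e-05 or less, 19.5% within 25 nt and 69.7% within 100 nt. The shared percentage became 50.2% both with an overlap of 50% of both peaks and with summits within 100 bp. With 16-mers in place of 12-mers, repeat-rich long exons held 0.262 summits per kb.

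Leaving out each replicate in turn gave 6 to 8 genes, 22 to 24 peaks, 59.1% to 66.7% shared, a median fold enrichment of 3.24 to 3.46, 0.0945 to 0.243 summits per kb, 36.4% to 41.7% with GGAC, and 26 to 29 genes of those lists. Where a value is a mean of the lists, leaving out 1 gives the value of the other, so these ranges are the replicates' own values. The gene counts here are genes with a peak in the remaining list, unlike the counts of 6 and 25 genes with a peak in both. The density in repeat-rich long exons is the value that turned on 1 library, 0.0945 without replicate 2 and 0.243 without replicate 1. No paired analysis was possible because the input samples, which share the replicate numbers, had no values used here. Depth is unknown, and with 22 and 24 exonic peaks a share carries an interval as wide as 38.7% to 76.7%.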

Other observations

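Of the mucin genes outside the 10, 4 had exonic peaks in replicate 2 only, and they are named here after their values were seen. Over all protein-coding genes, 34.1% had an exonic peak in replicate 2 and 33.4% in both lists, so few had one in replicate 2 only. MUC12 had 9 peaks, with a fold enrichment of up to 6.84, MUCL3 had 2 (up to 4.67), and MUC7 and MUC17 had 1 each, both of 6.09. That is also the fold enrichment of a MUC3A exon 2 peak of replicate 2. The MUC3A peak had the same fold enrichment and −log10 q as 150 other peaks of that list. None of the other mucin genes had peaks in replicate 1 only. Among the goblet and foveolar genes, TFF1, a secreted trefoil peptide of gastric surface cells, had 1 peak in replicate 1 only, with a fold enrichment of 1.57. TFF2, TFF3, AGR2, AGR3, CLCA1, ZG16, CREB3L4, GKN1 and GKN2 had none in either list.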
